A study of Mus musculus with 2 samples.

Results

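The Toll-like receptor system was followed, as 10 genes, through 2 single-cell libraries of mouse periodontium. These were 7 receptor genes (Tlr2, Tlr3, Tlr4, Tlr5, Tlr7, Tlr9 and Tlr13), the co-receptor genes Cd14 and Ly96, and the adaptor gene Myd88. The 10 members were taken by symbol from the 32285 genes listed in both count matrices. They were chosen with earlier results of these data known.

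Toll-like receptors are membrane proteins that bind conserved microbial molecules and start inflammatory transcription through NF-kappaB and interferon regulatory factors. TLR2, TLR4 and TLR5 act at the cell surface on bacterial lipoproteins, lipopolysaccharide and flagellin, whereas TLR3, TLR7, TLR9 and TLR13 act in endosomes on nucleic acids. CD14 passes lipopolysaccharide to TLR4 and its partner LY96, and MYD88 carries the signal of every Toll-like receptor named here except TLR3. In the periodontium, which lies against a bacterial biofilm, these receptors are known as sensors of oral bacteria.

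The tissue was the maxillary periodontium, which holds the upper teeth, and 1 droplet library was deposited under each of the titles RP and 377P. The series title concerns the resolution of periodontitis in diabetic mice, but the meaning of RP and 377P is not given in the labels, nor are genotype, age, treatment, time point or the number of animals pooled. Neither library was therefore taken as a control, and ratios are given as RP over 377P. With 1 library per title no difference has a replicate check, and all intervals below are exact 95% intervals that cover counting error only.

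The RP library held 18112 barcodes and 120909095 UMIs (unique molecular identifiers, counted mRNA molecules), and the 377P library 15466 barcodes and 127094166 UMIs. After limits on mitochondrial UMIs and gene number, 17290 RP cells and 15351 377P cells were kept, with median depths of 4398 and 5352 UMIs. The libraries shared 82 barcodes. Marker genes that included none of the 10 members assigned 12956 RP cells (74.9%) and 12011 377P cells (78.2%) to a cell type. Levels are UMIs per 1000000 UMIs of a type (CPM), and 11 types with at least 100 cells in each library are described. These were stratified epithelial (2394 RP and 2864 377P cells), gland or simple epithelial (2078 and 420), fibroblast (3596 and 2556), perivascular (1097 and 531), blood endothelial (1482 and 525), lymphatic endothelial (210 and 114), Schwann (190 and 114), monocyte or macrophage (718 and 325), neutrophil (142 and 113), T (466 and 1693) and B cells (368 and 2457). Genes outside the marker lists that led these types went with their names, such as Mpeg1 and Trem2 in monocytes or macrophages, Fpr1 and Trem3 in neutrophils, Cd28 and Icos in T cells, and Sele and Selp in blood endothelial cells.

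Myeloid cells held the highest levels of Tlr2, Tlr13 and Cd14, but Tlr4 was as high in fibroblasts as in macrophages, Tlr3 was highest in endothelium, and Myd88 was highest in perivascular cells. By point value, in 7 of the 10 genes the same type ranked first in both libraries, and the exceptions were Tlr2, Tlr4 and Tlr9. Only for Tlr7, Cd14 and Myd88 was the interval of the first type apart from that of the second in both libraries. The members had 18500 UMIs in RP and 15626 in 377P, of which Cd14 gave 5715 and 3792, Myd88 4875 and 5212, and Tlr9 only 7 and 24.

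**Figure D1:**
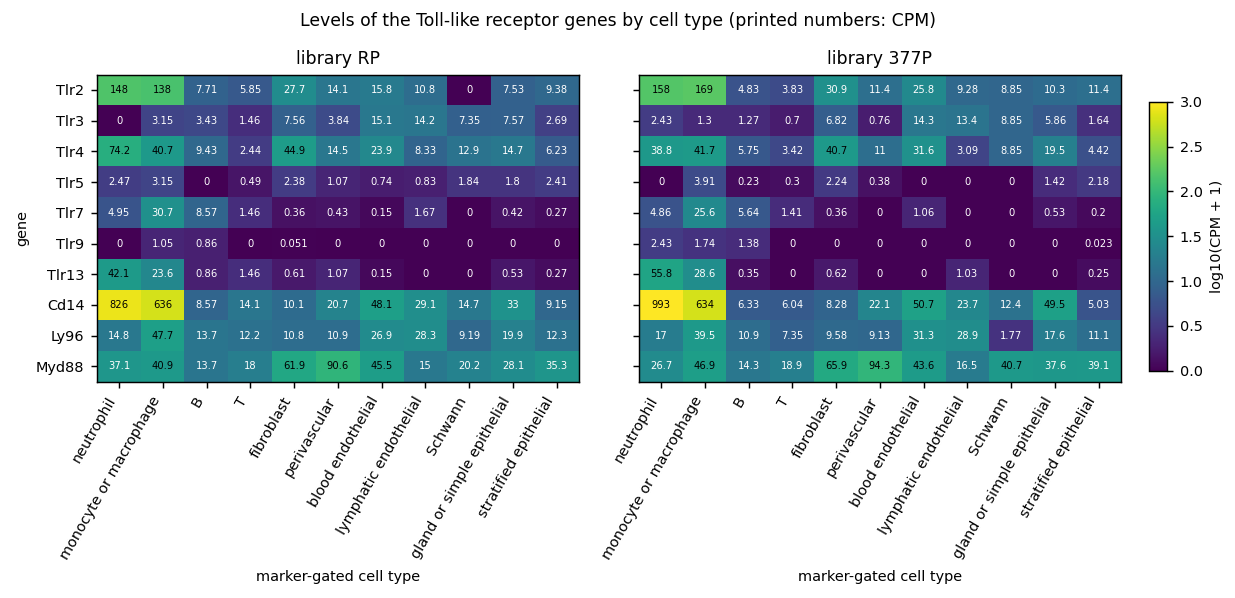
Level of each of the 10 genes (rows) in the 11 marker-gated cell types (columns), RP on the left and 377P on the right. Colour is log10(CPM + 1) and the printed numbers are CPM; Cd14 stands out at 826 (RP) and 993 CPM (377P) in neutrophils, and Tlr13 and Tlr7 are near 0 outside blood-derived cells.

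Tlr2 (ENSMUSG00000027995, GRCm38 chr3:83836272-83841767, minus strand), the receptor for bacterial lipoproteins, was a myeloid gene with a second, lower level in stroma. Neutrophils had 148 CPM in RP (113 to 191) and 158 CPM in 377P (122 to 201). The level in monocytes or macrophages was 138 CPM in RP (127 to 151) and 169 CPM in 377P (152 to 186). The intervals of these types overlapped in each library, and both lay above every other described type. Fibroblasts came next, with 27.7 CPM in RP (25.5 to 30.2) and 30.9 CPM in 377P (28.4 to 33.5). Blood endothelial cells had 15.8 CPM in RP and 25.8 CPM in 377P. The remaining types lay between 0 and 14.1 CPM, with overlapping intervals from one rank to the next, apart from blood endothelium and perivascular cells in 377P.

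Tlr4 (ENSMUSG00000039005, GRCm38 chr4:66827584-66930284, plus strand), the lipopolysaccharide receptor, was spread over myeloid, stromal, endothelial and gland cells. Fibroblasts had 44.9 CPM in RP (42.0 to 48.0) and 40.7 CPM in 377P (37.9 to 43.6). In monocytes or macrophages it had 40.7 CPM in RP (34.5 to 47.6) and 41.7 CPM in 377P (33.7 to 50.9). Their ratio, fibroblasts over monocytes or macrophages, was 1.11 in RP (0.931 to 1.32) and 0.976 in 377P (0.789 to 1.22), so the 2 types could not be ordered. Neutrophils had 74.2 CPM in RP (50.1 to 106), from 30 UMIs, and 38.8 CPM in 377P (22.2 to 63.1), from 16 UMIs. They ranked first, with an interval apart from the next, in RP alone. Blood endothelial cells followed with 23.9 CPM in RP and 31.6 CPM in 377P, then gland or simple epithelial cells with 14.7 and 19.5 CPM, while T cells had 2.44 and 3.42 CPM. Because fibroblasts were numerous, they held 46.2% of the Tlr4 UMIs of all typed RP cells and 53.2% of those of 377P, against 8.08% and 6.54% in monocytes or macrophages.

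Tlr5 (ENSMUSG00000079164, GRCm38 chr1:182954788-182976044, plus strand), which senses flagellin, was low everywhere. Its highest level, in monocytes or macrophages, was 3.15 CPM in RP (1.63 to 5.5) and 3.91 CPM in 377P (1.79 to 7.41), from 12 and 9 UMIs. Stratified epithelial cells had 2.41 and 2.18 CPM, and fibroblasts 2.38 and 2.24 CPM. Their intervals overlapped with those of the macrophages, so no first rank can be given for this gene at this depth.

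Tlr3 (ENSMUSG00000031639, GRCm38 chr8:45395665-45411080, minus strand), the sensor of double stranded RNA, had its highest levels in endothelium and not in myeloid cells. Blood endothelial cells had 15.1 CPM in RP (12.3 to 18.3) and 14.3 CPM in 377P (10.8 to 18.7), and lymphatic endothelial cells 14.2 and 13.4 CPM. Monocytes or macrophages had only 3.15 CPM in RP, from 12 UMIs, and 1.30 CPM in 377P, from 3 UMIs. Blood endothelium was thus 4.78-fold above monocytes or macrophages in RP (2.62 to 9.56) and 11-fold above them in 377P (3.57 to 55.1). Gland or simple epithelial cells (7.57 and 5.86 CPM) and fibroblasts (7.56 and 6.82 CPM) lay in between, with intervals apart from those of blood endothelium. Tlr3 overlaps Gm45542 on the other strand, but that gene had only 4 UMIs in RP and 1 in 377P.

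Tlr7 (ENSMUSG00000044583, GRCm38 chrX:167304929-167330558, minus strand), an endosomal receptor for single stranded RNA, ranked first in monocytes or macrophages, with B cells behind them. They had 30.7 CPM in RP (25.4 to 36.8) and 25.6 CPM in 377P (19.5 to 33.0), with intervals apart from those of all other described types. B cells had 8.57 CPM in RP (4.11 to 15.8) and 5.64 CPM in 377P (4.17 to 7.45). T cells, at 1.46 and 1.41 CPM, were lower than B cells, although in RP the T cell value rests on 3 UMIs and its interval overlapped that of B cells. Neutrophils had 2 UMIs in each library.

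Tlr9 (ENSMUSG00000045322, GRCm38 chr9:106222598-106226883, plus strand), which recognises unmethylated CpG DNA, was near the limit of detection. Of its typed UMIs, B cells held 1 in RP and 12 in 377P, and monocytes or macrophages held 4 in each library. All that remained were 1 UMI in RP fibroblasts and, in 377P, 1 each in stratified epithelial cells, neutrophils and dendritic cells. Among 1693 T cells of 377P none had a Tlr9 UMI, where 3 counts would be 0.302 CPM. In the B cells of 377P the level was 1.38 CPM (0.713 to 2.41).

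Tlr13 (ENSMUSG00000033777, GRCm38 chrX:106143204-106160493, plus strand), which in the mouse recognises bacterial ribosomal RNA, was found mostly in neutrophils and in monocytes or macrophages, which held 11% and 58.4% of its typed UMIs in RP and 19.3% and 55.5% in 377P. Neutrophils had 42.1 CPM in RP (24.5 to 67.3) and 55.8 CPM in 377P (35.4 to 83.8). Its level in monocytes or macrophages was 23.6 CPM in RP (19 to 29.0) and 28.6 CPM in 377P (22.2 to 36.4). In the other 9 described types the level stayed at or below 1.46 CPM in both libraries, and it was 0.609 and 0.625 CPM in fibroblasts. Blood endothelial cells had 1 UMI in RP and 0 in 377P. With 3 counts taken for the 0, monocytes or macrophages were 35.9-fold higher in 377P, and the interval began at 28.4-fold.

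Upstream sequence from the RefSeq promoter table (GRCm38.p6) is shown for Tlr2 and Tlr13, whose levels set myeloid cells apart, and for Tlr9, whose few UMIs came mostly from B cells and macrophages. The table held 6 of the 10 genes (Tlr2, Tlr3, Tlr5, Tlr9, Tlr13 and Myd88). Of the 250 bases before each RefSeq start, the bases that lie before the gene as GENCODE annotates it are printed on the gene's strand. They are Tlr2 at chr3:83841768-83841858 (minus strand), Tlr13 at chrX:106143025-106143203 (plus strand) and Tlr9 at chr9:106222348-106222597 (plus strand). Capitals mark matches to the NF-kappaB type of motif (GGG, any 5 bases, CC) in Tlr2 and to GAGGAA, the type bound by the myeloid and B cell factor PU.1, in Tlr13 and Tlr9.
Tlr2: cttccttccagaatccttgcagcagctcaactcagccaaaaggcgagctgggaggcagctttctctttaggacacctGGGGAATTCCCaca
Tlr13: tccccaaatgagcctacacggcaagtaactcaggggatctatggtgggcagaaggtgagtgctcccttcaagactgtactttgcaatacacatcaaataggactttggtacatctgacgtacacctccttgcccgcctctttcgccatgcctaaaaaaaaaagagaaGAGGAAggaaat
Tlr9: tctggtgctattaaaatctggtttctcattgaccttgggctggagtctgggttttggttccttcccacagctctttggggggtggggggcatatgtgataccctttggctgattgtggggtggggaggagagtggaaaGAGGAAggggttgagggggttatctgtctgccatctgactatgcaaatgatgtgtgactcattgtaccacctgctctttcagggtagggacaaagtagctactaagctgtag
Both strands were searched over the full 250 bases. GAGGAA lay 83 to 78 bases before the Tlr13 start and 112 to 107 bases before the Tlr9 start, and 23.1% of 27025 promoters of that length held it. The NF-kappaB type matched Tlr2 at 2 overlapping positions 173 to 163 bases before its start, 1 of them on both strands, and also Tlr3 and Tlr5, against 45.4% of all promoters. An interferon response type (GAAA, any 2 bases, GAAA) was found only in Myd88 among the 6 genes, 40 to 31 bases before its start, and in 3.04% of all promoters. The Myd88 and Tlr3 windows lay wholly inside the genes as GENCODE annotates them, so their matches are not upstream of those gene intervals. No GAGGAA was found in the Tlr2 window, and no match to the NF-kappaB type in those of Tlr13 and Tlr9. These matches describe letters in a window and not binding.

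Cd14 (ENSMUSG00000051439, GRCm38 chr18:36725067-36726798, minus strand), the co-receptor that hands lipopolysaccharide to TLR4, stood far higher in myeloid cells than elsewhere. Neutrophils had 826 CPM in RP (740 to 920) and 993 CPM in 377P (899 to 1094). The monocytes or macrophages had 636 CPM in RP (611 to 662) and 634 CPM in 377P (602 to 667). These types lay apart from each other and from all other described types in both libraries. The order of the myeloid types in RP depended on the gate, since neutrophils had 602 CPM there when cells of more than 1 lineage were kept. Blood endothelial cells had 48.1 CPM in RP (43.0 to 53.7) and 50.7 CPM in 377P (43.8 to 58.5), and gland or simple epithelial cells 33.0 CPM (30.9 to 35.2) and 49.5 CPM (43.9 to 55.7). Fibroblasts were 63.0-fold below monocytes or macrophages in RP (54.5 to 73.2) and 76.6-fold below them in 377P (65.0 to 90.8).

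A Cd14 UMI was found in 68.5% of RP monocytes or macrophages (65.0% to 71.9%) and in 72.9% of those of 377P (67.7% to 77.7%). T cells, which should lack the gene, had one in 5.79% (RP) and 3.19% (377P) of cells, and the median depths were 4669.5 and 6143 UMIs in monocytes or macrophages and 3512.5 and 4688 UMIs in T cells. With every cell thinned to 1500 UMIs the shares were 49.7% (RP) and 46.2% (377P) in monocytes or macrophages, from 642 and 308 cells with 76 and 17 shallower ones left out. In T cells they were 2.40% and 0.902%, from 451 and 1678 cells with 15 left out in each library. Thinned fibroblasts reached 1.51% and 1.25% (139 and 143 left out), below the T cell share in RP and above it in 377P. The T cell share differed more between the libraries than the fibroblast share, so fibroblast Cd14 could not be told from background this way. Thinned blood endothelial cells reached 5.57% and 5.51% (349 and 66 left out), above the T cells of both libraries. The 11 macrophage markers summed to 150 CPM in RP (11 detected) and 110 CPM in 377P blood endothelial cells (10 detected), against 6520 and 5446 CPM in macrophages themselves. The 10 neutrophil markers summed to 215 CPM (10 detected) and 125 CPM (8 detected) there. The part of free myeloid RNA in endothelial Cd14 was not tested.

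Ly96 (ENSMUSG00000025779, GRCm38 chr1:16688051-16709611, plus strand) encodes the secreted partner that holds lipopolysaccharide on TLR4. Its level in monocytes or macrophages was 47.7 CPM in RP (41.1 to 55.2) and 39.5 CPM in 377P (31.8 to 48.5). Lymphatic endothelial cells had 28.3 and 28.9 CPM, blood endothelial cells 26.9 and 31.3 CPM, and gland or simple epithelial cells 19.9 and 17.6 CPM. In 377P the intervals of these types formed an unbroken chain from macrophages down, while in RP macrophages lay apart. Neutrophils, first for Cd14, had only 14.8 CPM (5.45 to 32.3) and 17.0 CPM (6.83 to 35.0), 3.22-fold below monocytes or macrophages in RP (1.45 to 8.88) and 2.32-fold below them in 377P (1.08 to 5.94). Fibroblasts, with 10.8 and 9.58 CPM, were 4.44-fold (3.62 to 5.44) and 4.12-fold (3.17 to 5.33) below them. T cells had 12.2 and 7.35 CPM of Ly96, with intervals that overlapped those of fibroblasts in each library.

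Fibroblasts thus could not be told from macrophages by their Tlr4 level but had far less of either co-receptor. Counted per cell, 641 RP fibroblasts had a Tlr4 UMI, of which 40 (6.24%) also had Ly96 and 37 (5.77%) Cd14. Among 377P fibroblasts, 553 had Tlr4, of which 51 (9.22%) had Ly96 and 33 (5.97%) Cd14. Fibroblasts without a Tlr4 UMI had Ly96 in 5.48% (RP) and 6.04% (377P) of cells and Cd14 in 4.74% and 5.14%. Median depths were 5803 and 7692 UMIs with Tlr4 and 4430 and 6088 UMIs without it. All 3 genes were found in 2 RP and 5 377P fibroblasts. In monocytes or macrophages 109 RP cells had Tlr4, of which 29 (26.6%) had Ly96 and 70 (64.2%) Cd14. In 377P 63 cells had it, of which 17 (27.0%) had Ly96 and 56 (88.9%) Cd14, and all 3 genes were found in 22 RP and 13 377P cells. Macrophages without Tlr4 had Cd14 in 69.3% (RP) and 69.1% (377P) of cells. Median depths were 5055 and 7106 UMIs in macrophages with Tlr4 and 4611 and 5870.5 UMIs in those without, and the difference between the libraries was not tested. Of 276 RP and 170 377P macrophages with a Tlr2 UMI, 79.7% and 84.7% had Cd14, against 61.5% and 60% of those without. The cells with Tlr2 were deeper, with medians of 5405 and 6871 UMIs against 4053.5 and 5075 UMIs. Gland or simple epithelial cells gave all 3 in 61 RP cells and 11 377P cells, of 318 and 77 cells with Tlr4. Of these Tlr4-positive cells 36.2% (RP) and 28.6% (377P) had Ly96 and 41.5% and 41.6% Cd14, against 17.8% and 15.5% with Ly96 and 22.0% and 24.8% with Cd14 in cells without Tlr4. The Tlr4-positive cells were deeper, with medians of 17946.5 and 18640 UMIs against 9141.5 and 8752, and the part of depth was not tested.

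**Figure D2:**
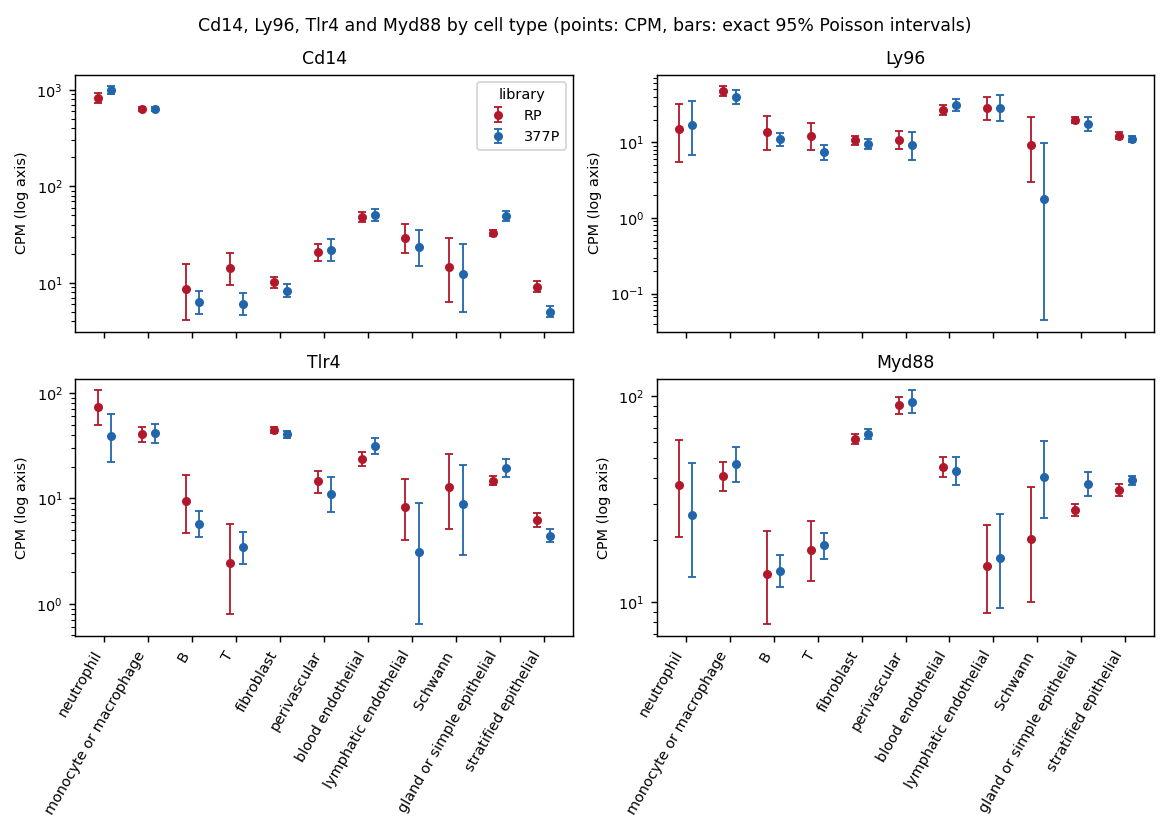
CPM of Cd14, Ly96, Tlr4 and Myd88 in 11 cell types on log axes, RP (red, left point of each pair) and 377P (blue); bars are exact 95% Poisson intervals. Tlr4 is level between fibroblasts and macrophages, whereas Cd14 is at 10.1 and 8.28 CPM in fibroblasts, against 636 and 634 CPM in macrophages.

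Myd88 (ENSMUSG00000032508, GRCm38 chr9:119335934-119341411, minus strand), the shared adaptor, was found in all 11 types but was not highest in immune cells. Perivascular cells had 90.6 CPM in RP (82.2 to 99.7) and 94.3 CPM in 377P (83.0 to 107). Fibroblasts had 61.9 CPM in RP (58.5 to 65.5) and 65.9 CPM in 377P (62.3 to 69.6). Both types lay apart from their neighbours in rank in each library. Myd88 in monocytes or macrophages was at 40.9 CPM in RP and 46.9 CPM in 377P, so perivascular cells were 2.21-fold (1.84 to 2.68) and 2.01-fold (1.60 to 2.55) above them. T cells (18.0 and 18.9 CPM), lymphatic endothelial cells (15.0 and 16.5 CPM) and B cells (13.7 and 14.3 CPM) were lowest. The Myd88 interval overlaps Slc22a14 on the same strand and Acaa1a on the other. Slc22a14 had 803 UMIs in RP and 676 in 377P and Acaa1a 3152 and 2763, and how reads in the overlaps were counted is not known, so the Myd88 level is uncertain to that extent.

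Splitting the types by 1 or more of their markers, in ways chosen after the cells had been seen, showed that several members varied within a type. A cell was called positive for a marker when the marker's share of its UMIs was at least 2 times the mean share over all kept cells. Fibroblasts positive for Dpt, a matrix gene of connective tissue fibroblasts, had 54.7 CPM of Tlr4 in RP and 46.9 CPM in 377P. Dpt-negative fibroblasts had 26.0 CPM in RP and 25.3 CPM in 377P. Tlr4 was thus 2.11-fold higher in the Dpt-positive cells of RP (1.78 to 2.50) and 1.85-fold higher in those of 377P (1.54 to 2.24). Median depths were 4723.5 and 6643 UMIs in Dpt-positive cells and 4497 and 5559 UMIs in Dpt-negative ones. Tlr2, by 1.30-fold in RP (1.08 to 1.58) and 1.51-fold in 377P (1.24 to 1.86), and Myd88, by 1.29-fold (1.13 to 1.46) and 1.26-fold (1.10 to 1.43), were also higher there, whereas the Ly96 ratios of 0.921 and 0.948 and the Cd14 ratios of 1.14 and 0.935 had intervals that held 1.

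Among monocytes or macrophages, those positive for Mrc1, the mannose receptor of resident macrophages, had less Cd14 and less Tlr13. Cd14 was 504 CPM in RP and 490 CPM in 377P for Mrc1-positive cells, and 793 and 799 CPM for Mrc1-negative cells, which gave ratios of 0.636 (0.586 to 0.689) and 0.614 (0.552 to 0.682). Tlr13 was 14 and 19.5 CPM in positive cells and 35.1 and 39.2 CPM in negative cells, with ratios of 0.398 (0.247 to 0.629) and 0.498 (0.288 to 0.841). Tlr7 ran the other way, at 38.6 and 31.7 CPM in positive cells against 21.3 and 18.6 CPM in negative cells. Its ratio was 1.81 in RP (1.21 to 2.75) and 1.70 in 377P, where the interval held 1 (0.967 to 3.07). Tlr4 gave ratios of 1.71 in RP (1.21 to 2.44) and 0.737 in 377P (0.482 to 1.12), so its direction was not shared by the libraries. A split by the 3 complement C1q genes gave a lower Tlr13 in positive cells of both libraries, at ratios of 0.561 and 0.580, and Cd14 ratios of 0.983 and 0.942. Tlr7 gave 1.70 in RP (1.12 to 2.64) and 0.819 in 377P (0.476 to 1.42) in that split, so its direction was not shared by the libraries there.

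Blood endothelial cells positive for Vwf, the von Willebrand factor gene of larger vessels, had 19.7 CPM of Tlr2 in RP and 35.2 CPM in 377P, against 10.6 and 11 CPM in Vwf-negative cells. The ratios were 1.86 (1.21 to 2.92) and 3.21 (1.86 to 5.88). Cd14 was 63.1 and 59.0 CPM in Vwf-positive cells and 28.4 and 37.6 CPM in Vwf-negative cells, with ratios of 2.22 (1.72 to 2.88) and 1.57 (1.14 to 2.19). Tlr3 gave 0.820 and 1.38 with intervals that held 1. Vwf-positive cells were deeper, with medians of 4356 and 6168 UMIs against 2256 and 3174 UMIs, and the part of depth was not tested. In stratified epithelium Myd88 was lower in basal cells, taken as positive for Krt5 and Col17a1 and negative for Krt13. Basal cells had 29.1 CPM in RP and 34.6 CPM in 377P, against 42.9 and 48.4 CPM in Krt13-positive, Col17a1-negative cells, with ratios of 0.678 (0.566 to 0.811) and 0.716 (0.627 to 0.819).

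**Figure D3:**
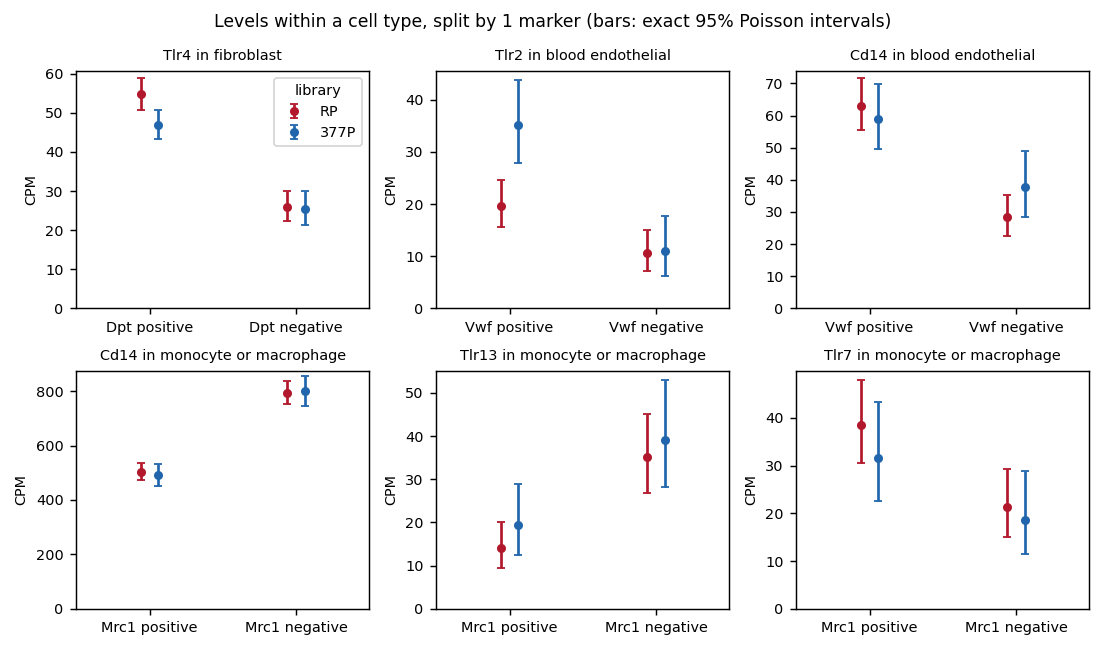
CPM of a member in marker-positive cells (left of each panel) and marker-negative cells (right), RP in red and 377P in blue, with exact 95% Poisson intervals. Tlr4 in Dpt-positive fibroblasts and Cd14 in Mrc1-negative macrophages are the higher group in both libraries.

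Between the libraries, members were compared type by type. Ratios of RP over 377P were taken in the 8 types with at least 200 cells in each library and for genes with at least 20 UMIs over both, and a ratio of at least 1.5 in either direction was called. Of 80 pairs of a member and a type, 53 were measured. In 43 the ratio was under 1.5-fold, in 9 RP was higher and in 1 377P was higher. Over the 112239 such pairs of all genes, 10.8% were called higher in RP and 10.1% in 377P, so staying under the limit was common to most genes and is not a property of the members. The other 27 pairs had too few UMIs, and Tlr9 was measured in none.

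No member was called in monocytes or macrophages, fibroblasts or gland cells. In monocytes or macrophages all 8 measured members were within 1.5-fold, where 13.3% of all 11852 genes measured in that type were called higher in RP and 6.91% in 377P. Cd14 there had a ratio of 1.0 (0.94 to 1.07) and Tlr4 one of 0.976 (0.752 to 1.27). Tlr2 was 1.22-fold higher in 377P (1.07 to 1.39), under the limit. Fibroblasts had 8 of 8 members within it, against 7.09% and 6.21% of all genes called higher in RP and in 377P, and Tlr4 there had a ratio of 1.10 (1.002 to 1.22).

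Gland or simple epithelial cells had 7 of 7 members within the limit, although 11.4% of all genes were called higher in RP and 27.9% in 377P. Cd14 was just under it, at a ratio of 0.667 (0.583 to 0.765), with 934 UMIs in RP and 279 in 377P. Myd88 was 1.34-fold higher in 377P (1.15 to 1.56) and Tlr4 1.33-fold (1.07 to 1.64). The median log2 ratio was -0.41 over the 7 members and -0.25 over all genes of this type. Without mitochondrial, ribosomal, haemoglobin, immunoglobulin and secreted gland genes in the total, the median of all genes was -0.11, and directions in gland cells are to be read against that shift. The gland groups also differed in their markers. Stratified epithelial markers summed to 4079 CPM in RP and 6327 CPM in 377P gland cells, and gland markers to 9855 and 7930 CPM. The part of this difference in the ratios was not tested.

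Stratified epithelium had 2 of 7 members called, both higher in RP, against 12.2% of all genes called higher in RP and 5.14% in 377P. Cd14 had 9.15 CPM in RP (235 UMIs) and 5.03 CPM in 377P (221 UMIs), a ratio of 1.82 (1.51 to 2.20). Both levels were below those of T cells, which should lack the gene, at 14.1 CPM in RP and 6.04 CPM in 377P. The T cell ratio was 2.34 (1.45 to 3.70), and the part of background in the epithelial ratio was not tested. Tlr3 had 2.69 and 1.64 CPM, a ratio of 1.64 (1.16 to 2.31), which was 1.39 at a marker share limit of 3. The 10 neutrophil markers, all of them detected in both libraries, summed to 258 CPM in RP and 167 CPM in 377P stratified epithelial cells, and the 11 macrophage markers, also all detected, to 248 and 243 CPM. Their part in the Cd14 ratio was not tested.

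Blood endothelium gave the 1 member higher in 377P, of 6 measured, with 8.44% of all genes called higher in RP and 7.57% in 377P. Tlr2 had 15.8 CPM in RP and 25.8 CPM in 377P, so it was 1.63-fold higher in 377P (1.23 to 2.17). The call depended on the gate: the ratio was 0.746 with cells of more than 1 lineage kept and 0.709 and 0.755 at marker share limits of 1 and 3, all short of the limit. Tlr4 was 1.32-fold higher in 377P (1.03 to 1.68). In Vwf-positive cells alone, which were 661 of 1482 in RP and 278 of 525 in 377P, Tlr2 had 19.7 and 35.2 CPM, and in Vwf-negative cells 10.6 and 11 CPM. Perivascular cells had 1 of 6 members called, Tlr3, with 18 UMIs in RP and 2 in 377P and a ratio of 5.04 (1.21 to 44.8), or 2.11 with cells of more than 1 lineage kept and 3.22 at a marker share limit of 3, while 8.69% of all genes were called higher in RP and 6.34% in 377P.

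Lymphocytes gave the remaining calls, all higher in RP and all at low levels. T cells had 3 of 5 members called, where 13% of all genes were called higher in RP and 8.6% in 377P. Their Cd14 was 14.1 CPM in RP (29 UMIs) and 6.04 CPM in 377P (60 UMIs), a ratio of 2.34 (1.45 to 3.70). Ly96 gave 1.66 (1.01 to 2.64), and Tlr2 gave 1.53 with an interval that held 1 (0.727 to 2.99). B cells had 3 of 6 members called, namely Tlr2 at 1.60, Tlr4 at 1.64 and Tlr7 at 1.52, each with an interval that held 1, against 12.9% of all genes called higher in RP and 10.6% in 377P. Some of these calls turned round or ended under other settings. In B cells Tlr7 had a ratio of 0.956 in thinned cells, Tlr4 one of 0.751 at a marker share limit of 1, and Tlr2 one of 1.14 with at least 4 markers. In T cells Tlr2 had 1.12 and Ly96 1.41 at a marker share limit of 1. Both myeloid marker lists summed higher in RP in T and B cells, and also in fibroblasts, where no member was called. In fibroblasts the macrophage list summed to 142 CPM in RP and 130 CPM in 377P, and the neutrophil list to 231 and 144 CPM. The neutrophil list summed to 2416 CPM in RP and 2445 CPM in 377P gland cells, so it is not particular to myeloid cells. In T cells the 11 macrophage markers, all detected in both libraries, summed to 125 CPM in RP and 76.9 CPM in 377P. The 10 neutrophil markers summed to 227 CPM in RP, with 7 detected, and to 154 CPM in 377P, with 10 detected. In B cells the macrophage markers summed to 129 CPM (10 of 11 detected) and 91.9 CPM (11 of 11), and the neutrophil markers to 317 CPM (9 of 10) and 191 CPM (10 of 10). Their part in the T and B cell ratios was not tested.

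Of the 10 calls, 6 had an interval that left out 1: Cd14 and Tlr3 in stratified epithelium, Tlr3 in perivascular cells, Tlr2 in blood endothelium, and Cd14 and Ly96 in T cells. Myd88 was called in none of the 8 types, with ratios between 0.746 and 1.04. Neutrophils were below the cell limit for calls. Their Cd14 ratio was 0.832 (0.718 to 0.964) and their Tlr4 ratio 1.91 (1.01 to 3.75). The Cd14 level of RP neutrophils depended on the gate, as given above, so this Cd14 ratio is uncertain beyond its interval.

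**Figure D4:**
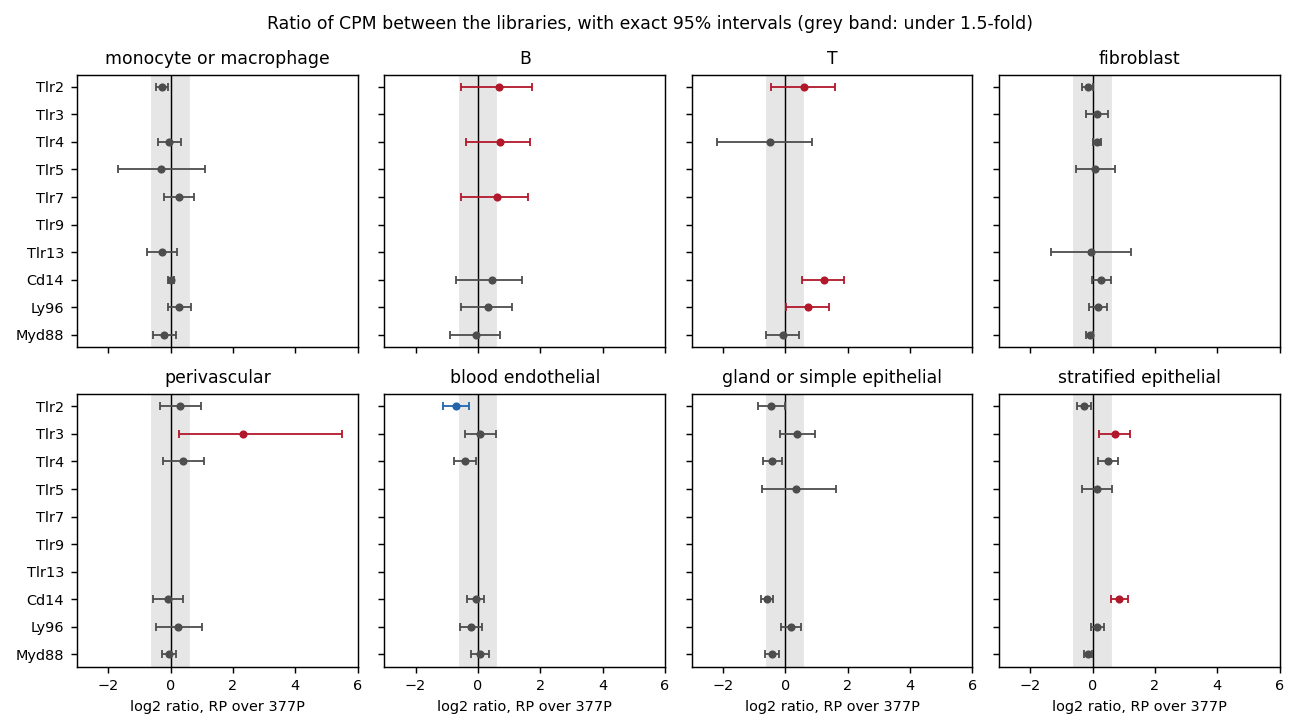
Log2 of the CPM ratio, RP over 377P, for each measured member in 8 cell types, with exact 95% intervals; the grey band spans ratios under 1.5-fold, red points are higher in RP and the blue point is higher in 377P. All points lie in the band in macrophages, fibroblasts and gland cells.

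The other genes of the pathway were a list of 44: further receptors, chaperones, adaptors, kinases, inhibitors and transcription factors. Over the 8 types 299 pairs of a gene and a type were measured, of which 16 were called higher in RP, 25 higher in 377P and 258 were within 1.5-fold, against 10.8% and 10.1% of the pairs of all genes called higher in RP and in 377P. By type, the counts higher in RP and in 377P were 3 and 3 of 37 in stratified epithelium, 1 and 10 of 37 in gland cells, 2 and 2 of 39 in fibroblasts, and 1 and 3 of 35 in perivascular cells. They were 2 and 2 of 36 in blood endothelium, 2 and 1 of 40 in monocytes or macrophages, 3 and 2 of 37 in T cells and 2 and 2 of 38 in B cells. Gland cells held 10 of the 25 calls higher in 377P, and there the share of all genes called in that direction was 27.9%, as given above with the shares of the other types.

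In each of the 7 types where it was measured, Cd36 was called higher in RP. It encodes a scavenger receptor that works with TLR2 on lipid ligands and also takes up fatty acids. In monocytes or macrophages it had 397 CPM in RP (1514 UMIs) and 168 CPM in 377P (386 UMIs), a ratio of 2.37 (2.12 to 2.66). In blood endothelial cells it had 116 CPM in RP and 11.2 CPM in 377P, a ratio of 10.4 (7.61 to 14.5). Fibroblasts gave a ratio of 7.40, from 5.78 CPM in RP and 0.781 CPM in 377P (15 UMIs). Stratified epithelium gave 6.64, from 3.78 and 0.569 CPM (25 UMIs in 377P), and perivascular cells 4.06, from 12.4 and 3.04 CPM (8 UMIs in 377P). B cells gave 2.40 and gland cells 1.56, the last with an interval that held 1 (0.985 to 2.58). Macrophages and blood endothelial cells were more numerous in RP, and the part of their free RNA in the ratios of the other types was not tested. Tlr2 was within 1.5-fold in monocytes or macrophages and fibroblasts, higher in 377P in blood endothelium, and higher in RP in B cells (1.60, 0.683 to 3.33).

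Lbp, the plasma protein that delivers lipopolysaccharide to CD14, was among the lowest ratios in 4 types. Gland cells had 10.8 CPM in RP and 35.9 CPM in 377P, so Lbp was 3.32-fold higher in 377P (2.77 to 3.98). In fibroblasts, with 23.7 and 38.2 CPM, Lbp was 1.61-fold higher in 377P (1.43 to 1.81). The intervals held 1 in perivascular cells (1.78-fold, 0.911 to 3.49) and in monocytes or macrophages (1.53-fold, 0.853 to 2.74). Cd180, a Toll-like receptor homologue of B cells, was called higher in 377P in stratified epithelium (2.12-fold, 1.495 to 3.08), blood endothelium (2.57-fold, 1.42 to 4.72), gland cells, perivascular cells and T cells, the last 3 with intervals that held 1. Its counts in these types were 4 to 56 UMIs in RP and 12 to 149 in 377P. Cd180 had 140 CPM in RP and 130 CPM in 377P B cells, which numbered 368 and 2457, and their part in these ratios was not tested. Rela, an NF-kappaB subunit, was 1.93-fold higher in 377P gland cells (1.77 to 2.11). Irak3, an inhibitory kinase of the pathway, was 1.86-fold higher in RP T cells (1.37 to 2.50), and Irak2 was 1.66-fold higher in RP stratified epithelium (1.43 to 1.93). Sigirr, another inhibitor, was 3.003-fold higher in RP fibroblasts (1.53 to 6.33), and Irak4, the first kinase to join MYD88, 1.52-fold higher in RP monocytes or macrophages (1.02 to 2.32). Unc93b1, which carries the endosomal receptors to their compartment, was 2.09-fold higher in 377P T cells (1.01 to 5.01), Ly86, the partner of CD180, 2.03-fold higher in 377P stratified epithelium (1.20 to 3.58), and Pik3ap1, an adaptor to phosphoinositide 3-kinase, 1.55-fold higher in 377P fibroblasts (1.18 to 2.05). The other extremes had intervals that held 1: Ikbke and Irf5 in blood endothelium, Tab1 in T and B cells, and Ticam1 and Ikbke in B cells.

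Genes with the closest profile were sought by Pearson's r of log2(CPM + 1) over the 11 types in both libraries, 22 points that share libraries and depth, among 13680 genes with at least 500 UMIs. These values are descriptions. Tlr13 lay closest to Osm (0.98), Mefv (0.98) and C5ar1 (0.97). Cd14 lay closest to Cd300a (0.93), Cxcl2 (0.92) and Fcer1g (0.92), and Tlr2 to Mafg (0.91), Hacd4 (0.89) and again Cxcl2 (0.89). For Tlr7, Gm49662 (0.95) and Ms4a6c (0.93) were among the closest, of which Ms4a6c is a marker used in the gate. Tlr9, at its few UMIs, had 5430427O19Rik (0.89), Napsa (0.87) and Syk (0.85). For Tlr3 they were Capn5 (0.90), Cgnl1 (0.88) and Hsd3b7 (0.88), for Tlr4 Jdp2 (0.89), Eid3 (0.86) and Tnfaip2 (0.83), and for Tlr5 Rab7b (0.84), Pdgfc (0.82) and Il18 (0.79). Ly96 lay closest to Mroh1 (0.85), Rsad2 (0.82) and Slc7a7 (0.81), and Myd88 to Cxcl1 (0.86), Pcdh19 (0.84) and Ntf3 (0.84). Among the members themselves the highest values were 0.88 for Cd14 with Tlr13, 0.83 for Tlr2 with Tlr13 and 0.81 for Cd14 with Tlr2, whereas Cd14 with Tlr3 gave -0.19.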

How the data were processed

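Per the labels' protocols, 10x 3′ v3 chemistry was used. The authors deposited unnormalised UMI counts for each gene and barcode, written by Cell Ranger 7.0.1 per the file headers. Cell Ranger, STAR and the mm10 mouse genome are named in the submitters' processing notes; which annotation was used, and whether introns were counted, is not given in the sources used here. The members and gene lists were chosen with earlier results of these data known.

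Barcodes with at most 20% mitochondrial UMIs and at least 200 genes were kept; in RP 819 and in 377P 115 failed the first limit, and 3 of RP the second. A marker counted in a cell at 2 times its mean share or more, and a type needed at least 3 of its markers. Cells in which another lineage reached 50% of the leading fraction of markers, 1058 in RP and 998 in 377P, were left out, in place of a doublet caller; a further 3276 and 2342 cells had no type. This scoring, and the splits within types, were set after the cells had been seen. UMIs were summed per type and library and scaled to CPM, with exact Poisson, Clopper-Pearson and Poisson-ratio intervals; a 0 was taken as 3 counts in ratios. The text names all members, the 2 highest and 2 lowest called ratios of the pathway list in each type, and the 3 genes of highest r for each member, of which 1 is not reported here. Gene positions are from GENCODE (GRCm38). Python 3.11.15 with numpy 2.4.6, scipy 1.17.1 and pandas 2.3.3 was used. The formula of the ratio intervals was tested on simulated Poisson counts without variation between cells, so the test does not cover such variation. No p-values are given, since there is 1 library per title.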

Additional observations from a re-analysis of the deposited data

How the results depend on the processing

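The ratios were recomputed under 11 other settings, and the levels under all of these but the limits of at least 3 and at least 50 UMIs. The marker share limits of 1 and 3 and the omission of the barcodes found in both libraries were chosen after seeing the data. The limits of at least 3 and at least 50 UMIs changed only which pairs were measured, so under them no ratio could move. Of the single member ratios recomputed, 569 stayed within their counting interval, 53 and 49 of them under those limits, 3 left it and 2 turned round. Those that left it, all in thinned cells, were Cd14 (0.825) and Myd88 (0.875) in gland cells and Cd14 in blood endothelium (0.760). Tlr7 in B cells had a ratio of 0.956 in thinned cells, and Tlr4 in B cells one of 0.751 at a marker share limit of 1; the cause was not tested. The 9 member ratios called higher in RP became 5 at a marker share limit of 1. The 1 called higher in 377P became 2 with at least 1000 UMIs per cell, 3 with at least 4 markers, 0 with cells of more than 1 lineage kept, 2 in thinned cells, 4 with genes of at least 3 UMIs, where more pairs are measured, and 2 without the shared barcodes. Highest levels left their interval 26 times and stayed within it 154 times; Cd14 in RP neutrophils ranged between 602 and 1120 CPM. Called counts of the pathway list stayed between 13 and 22 higher in RP and between 19 and 26 higher in 377P. The number of members with the same first type in both libraries stayed between 5 and 8. Tlr9 had too few UMIs for a ratio in any of the 8 types, and Tlr5 in 4 of them. No paired analysis was possible because each title has 1 library.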

Other observations

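Among the types too small for the comparisons, chondrocyte-like cells had the highest Tlr2 level in each library. There were 30 Tlr2 UMIs in 55 RP cells (73.2 CPM, 49.4 to 104) and 15 in 19 377P cells (94.0 CPM, 52.6 to 155), while Tlr4 had 1 UMI in each. Dendritic cells, with 32 RP and 47 377P cells, had 119 CPM (79.1 to 172) and 136 CPM (106 to 173) of Cd14. Plasma cells had 7 Ly96 UMIs in each library.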
